A study of Mus musculus with 8 samples.

Results

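Cytochrome P450 enzymes of families 1 to 4 were followed across 4 cell groups taken from injured mouse liver. Members were all gene symbols made of Cyp, a family digit from 1 to 4, letters and a final number, which gave 76 of 21968 symbols in 22 subfamilies. The families hold 3, 49, 7 and 17 of them, in the order 1 to 4. A further 10 symbols of these families have another ending, such as Cyp4a12a, and are not members. Of the 76 members, 58 passed the filter on low counts and were tested, 12 had reads but did not pass, and 6 had no read in any library. The 12 that did not pass reached at most 1.67 CPM in a library, and the 6 without a read were Cyp2b19, Cyp2b23, Cyp2d34, Cyp2j11, Cyp4a29 and Cyp4x1.

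All animals were Lgr5-LacZ transgenic mice of a mixed C57BL/6 and CBA background that had received 1 injection of carbon tetrachloride (CCl4, 1 µl per g body weight, in rapeseed oil) into the peritoneum, and livers were taken on day 6. Non-hepatocyte cells were sorted into a b-gal+ F4/80high gate, a b-gal- F4/80high gate and an EpCAM-positive gate, and hepatocytes form the remaining group. There were 2 bulk RNA libraries per group, also called pools here since each holds cells of 2 mice. The b-gal gates rest on a fluorogenic substrate of β-galactosidase and an antibody to F4/80, a macrophage surface protein. EpCAM is a surface protein of bile duct epithelium, and hepatocytes were taken by pelleting at low speed, without a sort. The age is 10 to 12 weeks in the sample labels and 7 to 12 weeks in the series text. Livers without CCl4 were not analysed here. Nothing in the labels says that a replicate number marks the same mice across groups, and p-values measure only the spread between these pools.

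P450 enzymes are haem proteins of the endoplasmic reticulum that insert oxygen into drugs, hormones, bile acids and fatty acids, with electrons passed on by P450 reductase. Families 1 to 3 mostly handle foreign compounds and steroids, and family 4 mostly hydroxylates the ends of fatty acids and eicosanoids. Hepatocytes are their main site in the body, and many of them are denser around the central vein than around the portal vein. Cyp2e1 is the enzyme known to turn CCl4 into its reactive radical.

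The libraries held 16948568 to 24549242 reads on named genes. Levels are counts per 1000000 reads after scaling of the libraries to one another (TMM), called CPM below. In the EpCAM-positive libraries, Epcam had 88.6 and 214 CPM, against 0.148 and 0.160 CPM in hepatocytes. The sorted groups also carried RNA of other cell types. The summed level of 12 Kupffer cell and macrophage markers was 41951 and 39856 CPM in the b-gal+ pools, 5808 and 3042 CPM in the b-gal- pools, 2003 and 399 CPM in the EpCAM-positive pools, and 435 and 301 CPM in hepatocytes. That of 12 sinusoidal endothelial markers was 5139 and 4132 CPM in the b-gal+ pools, 26199 and 30796 CPM in the b-gal- pools, 11155 and 9623 CPM in the EpCAM-positive pools, and 569 and 1382 CPM in hepatocytes. The b-gal- and EpCAM-positive libraries held more endothelial marker RNA than macrophage marker RNA, and the EpCAM-positive libraries also held more of it than of 12 cholangiocyte markers (2250 and 7605 CPM summed), although neither gate is named for endothelium, and every value for these groups below rests on such mixed libraries. Replicate 2 of the EpCAM-positive cells held 5564 CPM of 14 hepatocyte markers, against 829 CPM in replicate 1. In such bulk samples, fewer cells of a type and less RNA per cell cannot be told apart.

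Hepatocytes held most of the P450 RNA. Members took 0.0322% and 0.0340% of the reads of the b-gal+ libraries, 0.105% and 0.117% of the b-gal- libraries, 0.0768% and 0.110% of the EpCAM-positive libraries, and 1.56% and 2.05% of the hepatocyte libraries. Their summed level was 309 ± 9.55 CPM in the b-gal+ pools, 932 ± 55.1 CPM in the b-gal- pools, 642 ± 141 CPM in the EpCAM-positive pools and 33597 ± 7553 CPM in hepatocytes (SD, n = 2 each). The highest group mean was that of hepatocytes for 56 members, of the EpCAM-positive pools for 8, of the b-gal+ pools for 3 and of the b-gal- pools for 3. In hepatocytes 38 members reached a mean of 50 CPM and 9 reached 1000 CPM, while 3 members (Cyp4b1, Cyp4v3 and Cyp2d22) reached 50 CPM in any other group.

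The share of families 2 and 4 was close in the b-gal+ and b-gal- pools and differed in hepatocytes and, less so, in the EpCAM-positive pools. Family 4 made up 80.9% of the members' summed CPM in the b-gal+ pools, 82.8% in the b-gal- pools and 65.6% in the EpCAM-positive pools, against 8.21% in hepatocytes. Family 2 made up 16.0%, 16.4% and 31.9% in the same 3 sorted groups, against 64.5% in hepatocytes, and family 3 made up 2.27%, 0.401% and 1.71%, against 25.4%. Outside hepatocytes a single gene weighed heavily: Cyp4v3 was 32.6% of the sum in the b-gal+ pools, and Cyp4b1 was 73.3% in the b-gal- pools and 42.4% in the EpCAM-positive pools. In hepatocytes the first 3 genes, Cyp3a11, Cyp2e1 and Cyp2f2, made up 42.3%.

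**Figure D1:**
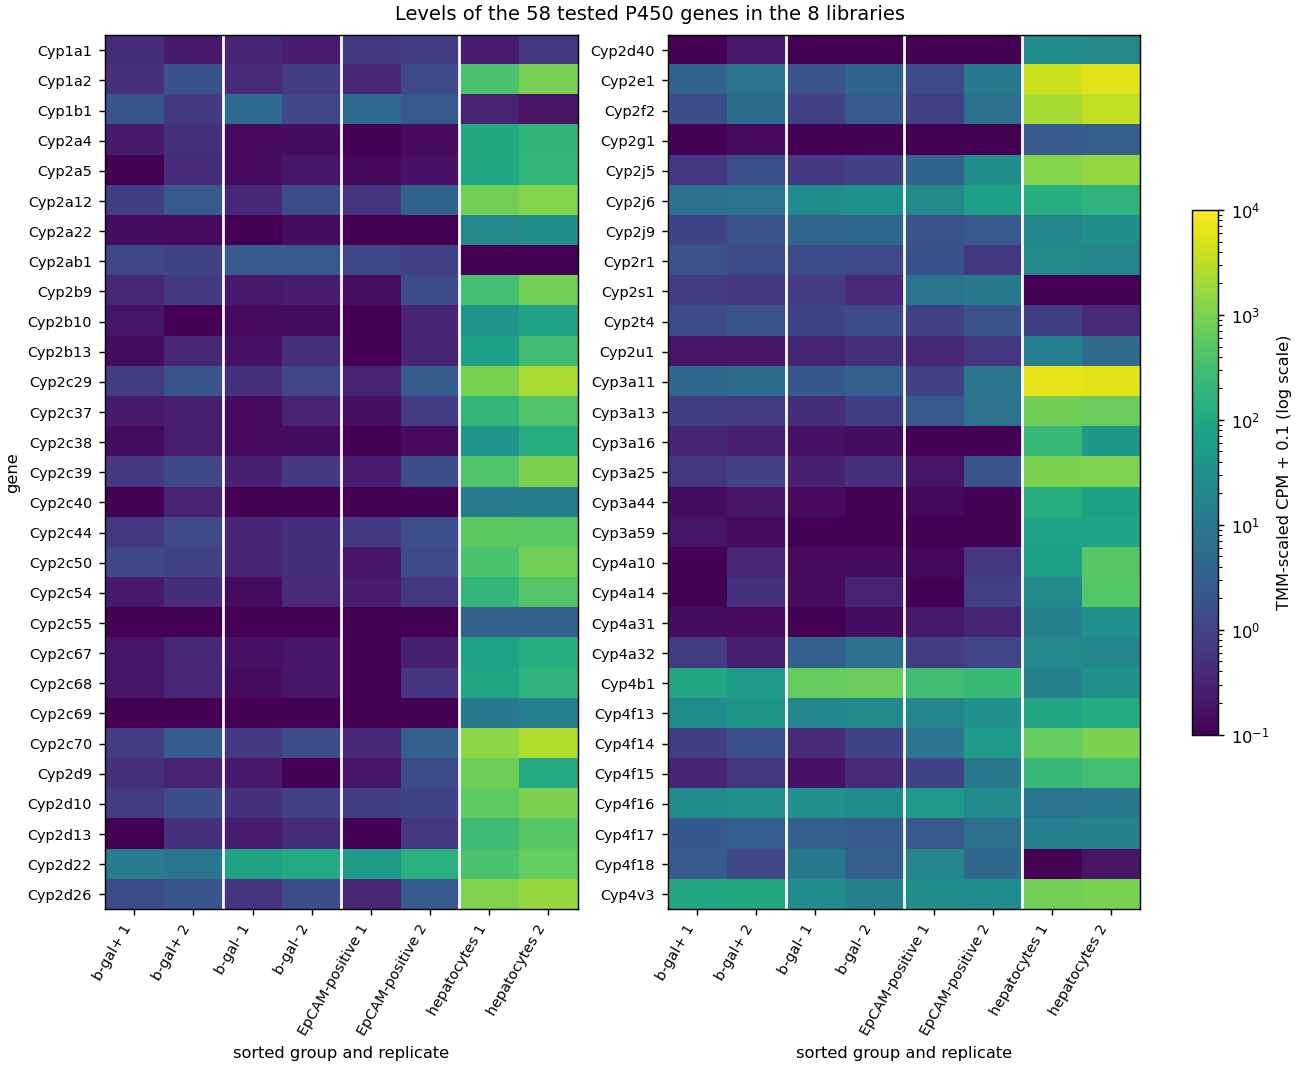
Level of each of the 58 tested members (rows) in each of the 8 libraries (columns), as TMM-scaled CPM + 0.1 on a logarithmic colour scale. Most genes are bright in the 2 hepatocyte columns alone, while Cyp4b1 is brightest in the b-gal- columns and Cyp2s1, Cyp2ab1 and Cyp4f18 are dark in hepatocytes.

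The stretch of 250 bases before the transcription start is shown for 6 members that carry the contrast between hepatocytes and the other groups: Cyp2e1, Cyp3a11, Cyp2f2 and Cyp2d9 from the hepatocyte side, and Cyp4b1 and Cyp2s1 from the other. Sequences are from RefSeq (GRCm38.p6), 5′ to 3′ on the strand of the gene, in lower case, with matches to any of 5 motifs on either strand in capitals.
Cyp2e1: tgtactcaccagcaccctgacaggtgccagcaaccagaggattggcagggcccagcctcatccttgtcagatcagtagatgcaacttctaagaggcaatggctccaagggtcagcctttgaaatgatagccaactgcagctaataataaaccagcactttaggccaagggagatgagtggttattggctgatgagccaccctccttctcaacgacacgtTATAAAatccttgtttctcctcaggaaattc
Cyp3a11: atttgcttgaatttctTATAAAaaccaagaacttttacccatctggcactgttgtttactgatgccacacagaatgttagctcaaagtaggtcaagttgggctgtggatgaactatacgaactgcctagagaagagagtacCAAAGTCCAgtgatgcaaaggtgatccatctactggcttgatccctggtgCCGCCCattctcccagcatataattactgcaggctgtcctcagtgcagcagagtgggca
Cyp2d9: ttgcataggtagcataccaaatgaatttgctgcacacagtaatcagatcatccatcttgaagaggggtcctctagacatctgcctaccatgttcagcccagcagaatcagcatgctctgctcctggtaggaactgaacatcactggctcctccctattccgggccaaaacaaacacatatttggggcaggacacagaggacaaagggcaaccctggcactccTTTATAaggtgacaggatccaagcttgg
Cyp2f2: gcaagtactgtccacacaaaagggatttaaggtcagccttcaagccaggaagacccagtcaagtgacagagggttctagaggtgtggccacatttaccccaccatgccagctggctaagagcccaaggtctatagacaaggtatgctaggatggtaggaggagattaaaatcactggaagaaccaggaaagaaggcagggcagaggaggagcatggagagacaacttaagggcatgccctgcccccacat
Cyp4b1: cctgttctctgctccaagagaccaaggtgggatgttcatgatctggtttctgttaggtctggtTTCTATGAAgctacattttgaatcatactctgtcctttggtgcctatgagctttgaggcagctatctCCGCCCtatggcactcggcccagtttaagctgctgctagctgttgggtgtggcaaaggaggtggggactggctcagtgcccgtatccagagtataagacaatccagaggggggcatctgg
Cyp2s1: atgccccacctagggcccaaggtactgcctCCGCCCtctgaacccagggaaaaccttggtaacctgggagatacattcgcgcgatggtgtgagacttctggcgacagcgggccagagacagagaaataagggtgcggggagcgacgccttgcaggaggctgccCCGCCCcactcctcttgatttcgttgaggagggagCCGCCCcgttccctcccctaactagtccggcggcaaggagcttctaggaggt
The Cyp2e1 promoter lies at chr7:140763569-140763818 (+), that of Cyp3a11 at chr5:145879855-145880104 (-), that of Cyp2f2 at chr7:27119705-27119954 (+), that of Cyp2d9 at chr15:82452127-82452376 (+), that of Cyp4b1 at chr4:115647722-115647971 (-) and that of Cyp2s1 at chr7:25816526-25816775 (-). The motifs searched were TATAAA (the TATA box), CAAAGTCCA (an element of HNF4, a nuclear receptor of hepatocytes), TTCNNNGAA (the STAT element), GCGTG (the core bound by the Ah receptor) and GGGCGG (the GC box). Cyp2e1 held TATAAA 31 to 26 bases before the start. Cyp2d9 held it on the opposite strand, printed as TTTATA, 28 to 23 bases before. Cyp3a11 held CAAAGTCCA 109 to 101 bases before the start, a GC box, and TATAAA only far upstream, at 234 to 229 bases. Cyp4b1 held TTCNNNGAA at 187 to 179 bases and 1 GC box, Cyp2s1 held 3 GC boxes, and Cyp2f2 held none of the 5 motifs.

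Of the 76 members, 63 have a promoter entry. All counts here take a match on either strand. Among 32 members with at least 50 CPM in hepatocytes and an entry, 16 held TATAAA, against 0 of 7 members whose highest group was another one and reached 1 CPM, and 13.0% of all 27025 promoters held it. CAAAGTCCA stood in 5 of the 32 and 0 of the 7, against 0.381% of all promoters. GGGCGG stood in 5 of the 32 and 5 of the 7, against 32.9% of all promoters, and GCGTG in 4 and 3, against 28.2%. TTCNNNGAA stood in 1 and 1, against 7.18%. Many of these members are related genes that lie side by side, so their promoters need not be independent, and the counts were not tested. A match describes the letters in this window and is not a measured binding site.

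The hepatocyte P450s were high in both hepatocyte libraries and near the floor elsewhere. Cyp3a11, the main mouse enzyme of the CYP3A subfamily of drug and steroid hydroxylases, had 4.61 and 5.87 CPM in the b-gal+ pools, 2.19 and 3.38 CPM in the b-gal- pools, 0.790 and 8.79 CPM in the EpCAM-positive pools, and 6803 and 5977 CPM in hepatocytes. Cyp2e1 had 3.94 and 8.69 CPM in the b-gal+ pools, 1.88 and 3.91 CPM in the b-gal- pools, 1.25 and 10.2 CPM in the EpCAM-positive pools, and 4123 and 5811 CPM in hepatocytes. No library of another group came near either hepatocyte library for these genes. Against hepatocytes, the log2 difference of Cyp2e1 was -9.58 ± 0.82 in the b-gal+ pools, -10.56 ± 0.82 in the b-gal- pools and -10.14 ± 0.82 in the EpCAM-positive pools (SE, on the scale of log2(CPM + 0.5)), with adjusted p of 8.57e-05, 5.25e-05 and 8.16e-05 in that order (limma, Benjamini-Hochberg).

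Other abundant hepatocyte P450s followed the same pattern. Cyp2f2, an enzyme of the periportal zone that is also known from club cells of the lung, had 1.48 and 5.99 CPM in the b-gal+ pools, 0.845 and 2.50 CPM in the b-gal- pools, 0.790 and 6.92 CPM in the EpCAM-positive pools, and 2214 and 3496 CPM in hepatocytes (log2 -9.60 in the b-gal+ pools, adjusted p = 0.000135, limma). In hepatocytes alone, Cyp2c70, which makes the muricholic acids of mouse bile, had 1415 and 2543 CPM, Cyp2c29 had 982 and 2281 CPM, Cyp2d26 had 1077 and 1670 CPM, Cyp3a25 had 1044 and 1083 CPM, and Cyp2a12 had 859 and 1162 CPM. Cyp2b10, the classic target of the receptor CAR, was modest, with 39.0 and 74.7 CPM in hepatocytes. For each of Cyp2e1, Cyp3a11 and Cyp2f2, replicate 2 was the higher library of its pair in all 3 sorted groups, as it was for the summed hepatocyte markers. Cyp2r1, a vitamin D hydroxylase, was low everywhere, with 1.83 and 1.33 CPM in the b-gal+ pools, 1.27 and 1.17 CPM in the b-gal- pools, 1.73 and 0.561 CPM in the EpCAM-positive pools, and 24.6 and 18.5 CPM in hepatocytes.

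Per length, the order at the top of the hepatocyte list was close between the first genes. As mean CPM per kilobase of the longest coding transcript, Cyp3a11 stood at 2726 and Cyp2e1 at 2710, a gap within the spread between the 2 hepatocyte pools. Cyp2f2 followed at 1530 CPM per kilobase, Cyp2c70 at 1153, Cyp2c29 at 915 and Cyp2d26 at 808. In the other groups Cyp4b1 led the members on the same scale, with 40.6 in the b-gal+ pools, 361 in the b-gal- pools and 144 in the EpCAM-positive pools.

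By test, 50 of the 58 tested members were lower than in hepatocytes in the b-gal+ pools, 50 in the b-gal- pools and 50 in the EpCAM-positive pools, and these were the same 50. Over all 14404 genes tested, 29.6%, 29.7% and 29.1% were lower in the 3 comparisons, and 29.5%, 33.5% and 33.5% were higher. The members' median log2 difference was -7.29, -7.49 and -7.11, beside 0.10, 0.17 and 0.15 over all genes. Many members passed the filter only through their hepatocyte reads, so these counts describe the family and do not test it. The comparisons also share the hepatocyte libraries. The deposited scaling moved the median of all genes to 0.87, 1.13 and 1.32, and on it 49, 46 and 46 members were called lower.

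Most subfamilies were lower as a whole. All 13 tested members of Cyp2c, 6 of Cyp2d, 6 of Cyp3a, 4 of Cyp2a, 4 of Cyp4a and 3 of Cyp2b were lower in each of the 3 groups. Summed over the subfamily, the 15 Cyp2c genes had 4.03 and 9.33 CPM in the b-gal+ pools, 1.88 and 4.50 CPM in the b-gal- pools, 1.55 and 12.6 CPM in the EpCAM-positive pools, and 4404 and 8577 CPM in hepatocytes. The 7 Cyp3a genes had 6.26 and 7.77 CPM in the b-gal+ pools, 2.92 and 4.55 CPM in the b-gal- pools, 3.40 and 18.5 CPM in the EpCAM-positive pools, and 9099 and 7979 CPM in hepatocytes. The 9 Cyp4f genes were spread more evenly, with 60.7 and 83.1 CPM in the b-gal+ pools, 67.8 and 56.1 CPM in the b-gal- pools, 104 and 136 CPM in the EpCAM-positive pools, and 997 and 1488 CPM in hepatocytes. Within Cyp4f, 4 genes were lower in each sorted group and Cyp4f16 was higher in each.

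Related genes sit side by side and share sequence. Of the 74 members placed on GRCm38 (GENCODE M21), 15 lie on chromosome 7, 14 on chromosome 19, 14 on chromosome 4, 9 on chromosome 17, 8 on chromosome 15 and 8 on chromosome 5. In 35 of the 74, at least 10% of the stretches of 50 bases also occur in another gene, and in 3 at least 50% do: Cyp2c40 with 72.1%, Cyp2c69 with 54.8% and Cyp2c67 with 52.8%. The sources used here do not give how the read counter treated such reads, so the values of close copies, Cyp2a4 and Cyp2a5 among them, are less certain than those of Cyp2s1, of which no stretch is shared.

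Each member with at least 50 CPM in hepatocytes was set beside 14 other hepatocyte genes, such as Alb, Apob and Ttr. Levels in the sorted libraries are given as a percent of the hepatocyte mean. The choice was made after values were seen and no test was run on it. The median over the 38 members was 0.0764% and 0.152% in the b-gal+ pools, 0.0354% and 0.0778% in the b-gal- pools and 0.0199% and 0.200% in the EpCAM-positive pools. The median over the 14 other hepatocyte genes was 0.115% and 0.242% in the b-gal+ pools, 0.0835% and 0.122% in the b-gal- pools and 0.0766% and 0.417% in the EpCAM-positive pools. The highest of the 14 reached 0.307% and 0.348% in the b-gal+ pools, 0.159% and 0.229% in the b-gal- pools and 0.571% and 2.86% in the EpCAM-positive pools. The lowest was at 0.0108% and 0.0128%, 0.00745% and 0.00950%, and 0.00165% and 0.119% in the same order. The 14 genes thus did not share 1 level, and a member below the highest of them is not read as carry-over alone.

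In both F4/80high groups, 4 of the 38 members exceeded the highest of the 14 genes in both libraries, namely Cyp2d22, Cyp2j6, Cyp4f13 and Cyp4v3. In EpCAM-positive cells 5 did, these 4 and Cyp4f14. Cyp2e1, Cyp3a11 and the Cyp2c genes were among the members that did not. The part of carried-over hepatocyte RNA in any single low value was not tested.

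**Figure D2:**
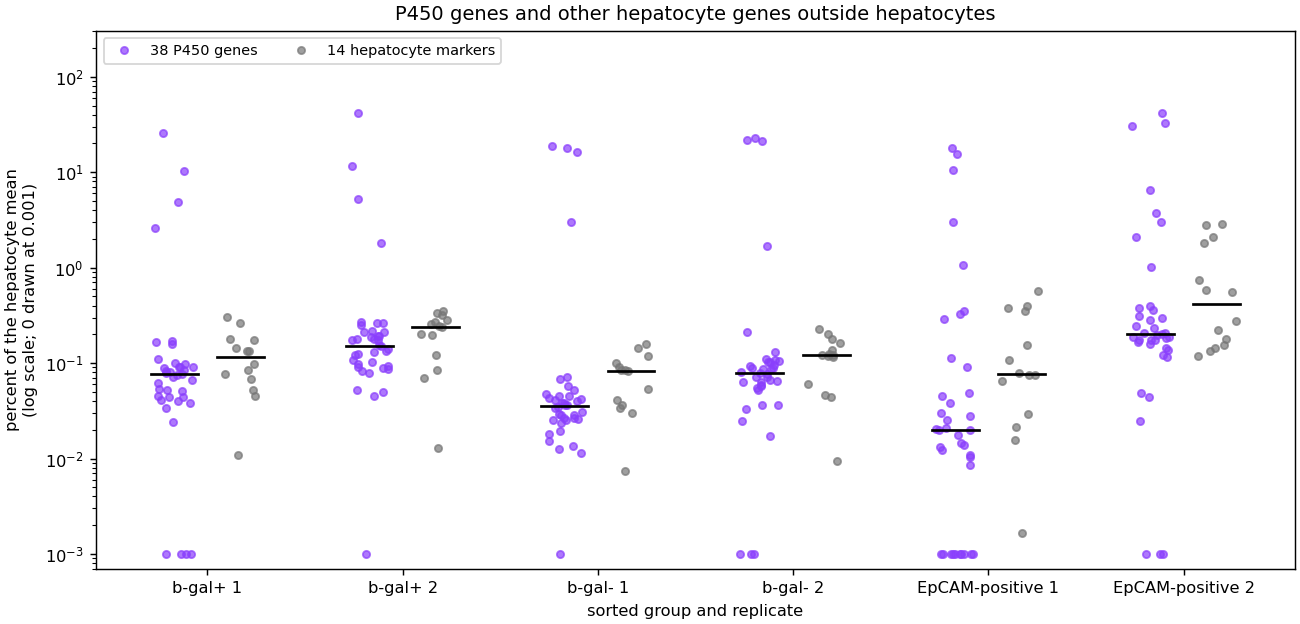
Level of 38 members (purple) and 14 other hepatocyte genes (grey) in each library of the 3 sorted groups, as a percent of the hepatocyte mean on a logarithmic axis, with black lines at the medians. The members form a low cloud beside the grey one, and Cyp2d22, Cyp2j6, Cyp4f13 and Cyp4v3 lie above every grey point in each library. In EpCAM-positive replicate 2 Cyp4v3 does so only narrowly, at 2.99% against 2.86% for Alb. Cyp4f14 also lies above the grey points in both EpCAM-positive libraries, and Cyp4f15 in replicate 2.

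Cyp4b1, a hydroxylase of fatty acids and of some toxins that is abundant in lung, was the most abundant member in the b-gal- pools. It had 97.3 and 56.4 CPM in the b-gal+ pools, 656 and 709 CPM in the b-gal- pools, 298 and 246 CPM in the EpCAM-positive pools, and 16.2 and 32.02 CPM in hepatocytes. No 2 groups overlapped, and the order from low to high was hepatocytes, b-gal+, EpCAM-positive and b-gal- cells. Its mean was 8.88-fold lower in b-gal+ than in the b-gal- pools (log2 difference -3.19 ± 0.37 SE, adjusted p = 0.00184, limma), a call held under all 16 alternative settings. Against hepatocytes it was 3.19-fold higher in the b-gal+ pools (log2 1.68, adjusted p = 0.00648), 28.3-fold higher in the b-gal- pools (log2 4.87, adjusted p = 4.49e-05) and 11.3-fold higher in the EpCAM-positive pools (log2 3.54, adjusted p = 0.000227; limma for all 3).

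Cyp4b1 also differed between the b-gal+ and EpCAM-positive cells, at 3.54-fold lower in the b-gal+ pools (adjusted p = 0.00983, limma), but not without b-gal+ replicate 2 (adjusted p = 0.0671). Between b-gal- and EpCAM-positive cells the log2 difference was 1.33 ± 0.37 (SE) and missed the threshold (adjusted p = 0.0605, limma), while DESeq2 called it (adjusted p = 0.0185). The gene lies on chromosome 4 from 115624725 to 115647723 on the minus strand (GRCm38).

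Endothelial marker RNA moved with Cyp4b1 across the libraries. As a percent of the summed level of the 12 sinusoidal endothelial markers, Cyp4b1 was at 1.89% and 1.36% in the b-gal+ pools, 2.50% and 2.30% in the b-gal- pools, 2.67% and 2.55% in the EpCAM-positive pools, and 2.84% and 2.32% in hepatocytes. The percent thus stayed within a narrow band in 6 of 8 libraries and was lower in both b-gal+ libraries, while the level itself ran between 16.2 and 709 CPM. The markers in the sum were unevenly low in the b-gal+ pools. Cdh5 had a mean of 968 CPM there, against 1420 CPM in the b-gal- pools, and Kdr had 301 CPM, against 3251 CPM. The lower percent in the b-gal+ pools therefore depends on the markers summed and is not read as less Cyp4b1 per endothelial RNA. Within the b-gal+ pair and the hepatocyte pair, the library with the higher endothelial sum was also the one with more Cyp4b1, and the same held in the EpCAM-positive and b-gal- pairs. The part of endothelial cells in the Cyp4b1 level was not tested.

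**Figure D3:**
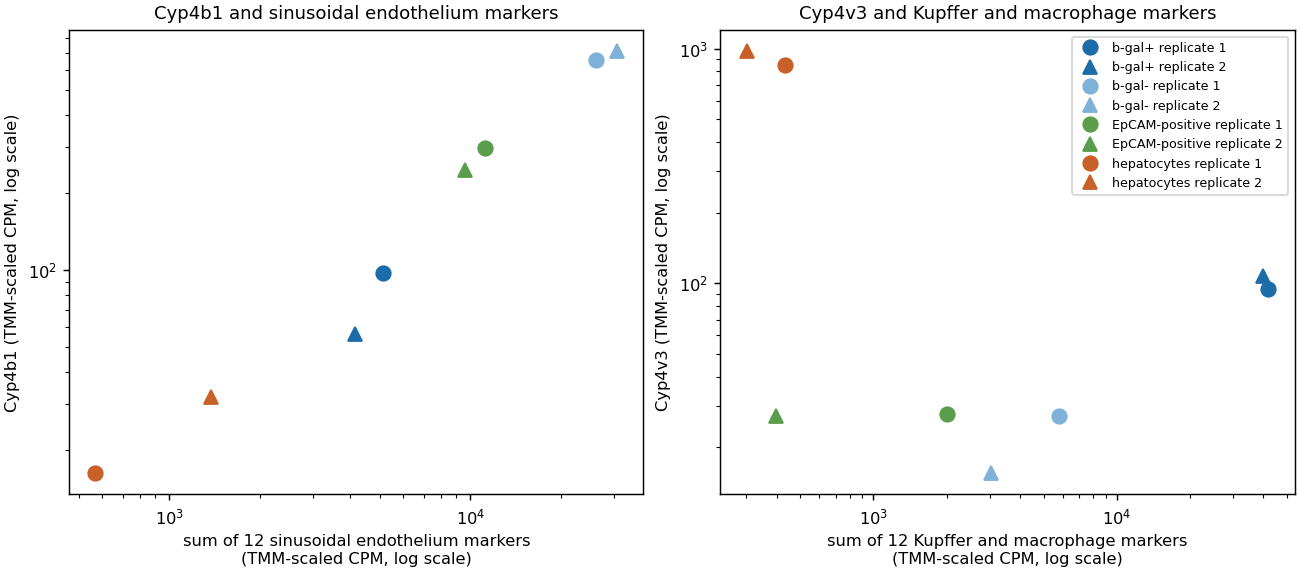
Left, Cyp4b1 against the sum of 12 sinusoidal endothelial markers, and right, Cyp4v3 against the sum of 12 Kupffer cell and macrophage markers, 1 point per library, all in TMM-scaled CPM on logarithmic axes. Cyp4b1 climbs with the endothelial sum over all 8 libraries, while Cyp4v3 is highest in hepatocytes, at 848 and 974 CPM, and next in the b-gal+ pools, where the macrophage sum is highest.

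Cyp4v3, the mouse counterpart of a human fatty acid hydroxylase whose loss causes a crystalline disease of the retina, was the only member higher in b-gal+ than in the b-gal- pools. It had 94.2 and 107 CPM in the b-gal+ pools, 27.3 and 15.5 CPM in the b-gal- pools, 27.7 and 27.2 CPM in the EpCAM-positive pools, and 848 and 974 CPM in hepatocytes. Both b-gal+ libraries lay above all 4 libraries of the b-gal- and EpCAM-positive cells and below both hepatocyte libraries. The mean was 4.70-fold higher in b-gal+ than in the b-gal- pools (log2 2.26 ± 0.26 SE, adjusted p = 0.00177, limma) and 3.66-fold higher than in the EpCAM-positive pools (log2 1.85, adjusted p = 0.00321, limma). Neither call was lost under any of the 16 alternatives.

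In b-gal+ cells Cyp4v3 reached 10.3% and 11.8% of its hepatocyte mean, in libraries where the highest of the 14 hepatocyte genes reached 0.348%. In b-gal- cells it reached 3.003% and 1.70%, and in the EpCAM-positive pools 3.04% and 2.99%. It remained 9.05-fold lower in the b-gal+ pools than in hepatocytes (adjusted p = 6.53e-05, limma). Macrophage marker RNA was highest in the b-gal+ libraries, as given above, and the part of macrophages in the Cyp4v3 level was not tested. The gene lies on chromosome 8 from 45304944 to 45333216 on the minus strand (GRCm38).

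Set against the b-gal- cells, the b-gal+ cells had 1 member higher and 6 lower of the 58 tested, while 10.4% of all genes were higher and 13.0% lower. The members' median log2 difference was 0.18, beside -0.02 over all genes. Leaving out either EpCAM-positive library added Cyp3a11 as a second higher member (adjusted p = 0.0436 without replicate 1 and 0.0423 without replicate 2, limma). The 6 lower members were Cyp4b1, Cyp2d22, Cyp2j6, Cyp2j9, Cyp4a32 and Cyp2ab1, of which Cyp2j9 and Cyp4a32 are named because their values passed the test. Of the 12 sinusoidal endothelial markers, 11 were also called lower in the b-gal+ pools. The part of endothelial cells in these 6 differences was not tested. The count of lower members fell to 3 without b-gal+ replicate 1, to 1 without b-gal+ replicate 2, to 3 without b-gal- replicate 1 and to 2 without b-gal- replicate 2.

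Cyp2d22, the mouse CYP2D enzyme often set beside human CYP2D6, had 13.2 and 9.17 CPM in the b-gal+ pools, 83.4 and 115 CPM in the b-gal- pools, 53.2 and 154 CPM in the EpCAM-positive pools, and 365 and 651 CPM in hepatocytes. The b-gal+ libraries lay below all others, and the b-gal- and EpCAM-positive libraries overlapped. As a percent of the endothelial sum, Cyp2d22 was at 0.256% and 0.222% in the b-gal+ pools, against 0.318% and 0.373% in the b-gal- pools. The b-gal+ mean was 8.88-fold lower than that of the b-gal- pools (log2 -3.10, adjusted p = 0.00683, limma), a call that did not hold without b-gal+ replicate 2 (adjusted p = 0.0579) or b-gal- replicate 2 (adjusted p = 0.0520). It was 9.28-fold lower than that of the EpCAM-positive pools (adjusted p = 0.00648, limma), a call that did not hold without b-gal+ replicate 2 (adjusted p = 0.0514). Against hepatocytes Cyp2d22 was 45.5-fold lower in the b-gal+ pools, 5.13-fold lower in the b-gal- pools and 4.90-fold lower in the EpCAM-positive pools. With the deposited scaling the calls in the b-gal- pools (adjusted p = 0.102, limma) and EpCAM-positive cells (adjusted p = 0.113, limma) were lost, and that in the b-gal- pools also without hepatocyte replicate 2 (adjusted p = 0.0542, limma).

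Cyp2j6, of the Cyp2j subfamily that makes epoxides of arachidonic acid, followed the same order as Cyp2d22. It had 7.69 and 8.21 CPM in the b-gal+ pools, 28.7 and 34.8 CPM in the b-gal- pools, 24.7 and 66.2 CPM in the EpCAM-positive pools, and 140 and 177 CPM in hepatocytes. The b-gal+ libraries again lay below all others. The b-gal+ mean was 3.99-fold lower than that of the b-gal- pools (log2 -1.93, adjusted p = 0.0180, limma), but leaving out any 1 of the 4 b-gal libraries lost the call (adjusted p between 0.0556 and 0.111). Against hepatocytes it was lower in all 3 groups, by 19.9-fold in the b-gal+ pools, 4.99-fold in the b-gal- pools and 3.48-fold in the EpCAM-positive pools. With the deposited scaling the last pair of calls was lost (adjusted p = 0.0525 for the b-gal- pools and 0.251 for the EpCAM-positive pools, limma).

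The other members lower in b-gal+ than in the b-gal- pools were at low levels. Cyp2j9 had 0.984 and 1.77 CPM in the b-gal+ pools, against 4.22 and 4.84 CPM in the b-gal- pools (log2 -1.45, adjusted p = 0.0242, limma), a call lost when any 1 of these 4 libraries was left out (adjusted p between 0.0605 and 0.159). Cyp4a32, of the fatty acid hydroxylases that respond to the receptor PPARα, had 0.626 and 0.161 CPM in the b-gal+ pools, against 3.38 and 7.14 CPM in the b-gal- pools (log2 -2.66, adjusted p = 0.00618, limma). That call did not hold without b-gal+ replicate 2 (adjusted p = 0.0564), and 46.8% of the 50-base stretches of Cyp4a32 also occur in other genes. Cyp2ab1 had 1.07 and 0.966 CPM in the b-gal+ pools, against 2.57 and 2.40 CPM in the b-gal- pools (log2 -0.97, adjusted p = 0.0312, limma), and was lost in 9 of the 16 settings (adjusted p up to 0.180), among them edgeR, DESeq2 and leaving out any 1 of the 4 b-gal or 2 hepatocyte libraries. In all 3 genes the b-gal+ and b-gal- libraries did not overlap. As a percent of the endothelial sum, Cyp2j9 was at 0.0192% and 0.0428% in the b-gal+ pools, against 0.0161% and 0.0157% in the b-gal- pools. In the same order, Cyp2ab1 was at 0.0209% and 0.0234%, against 0.00982% and 0.00779%. Cyp4a32 was at 0.0122% and 0.00389%, against 0.0129% and 0.0232%. All these percents depend on the markers summed, as given for Cyp4b1.

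**Figure D4:**
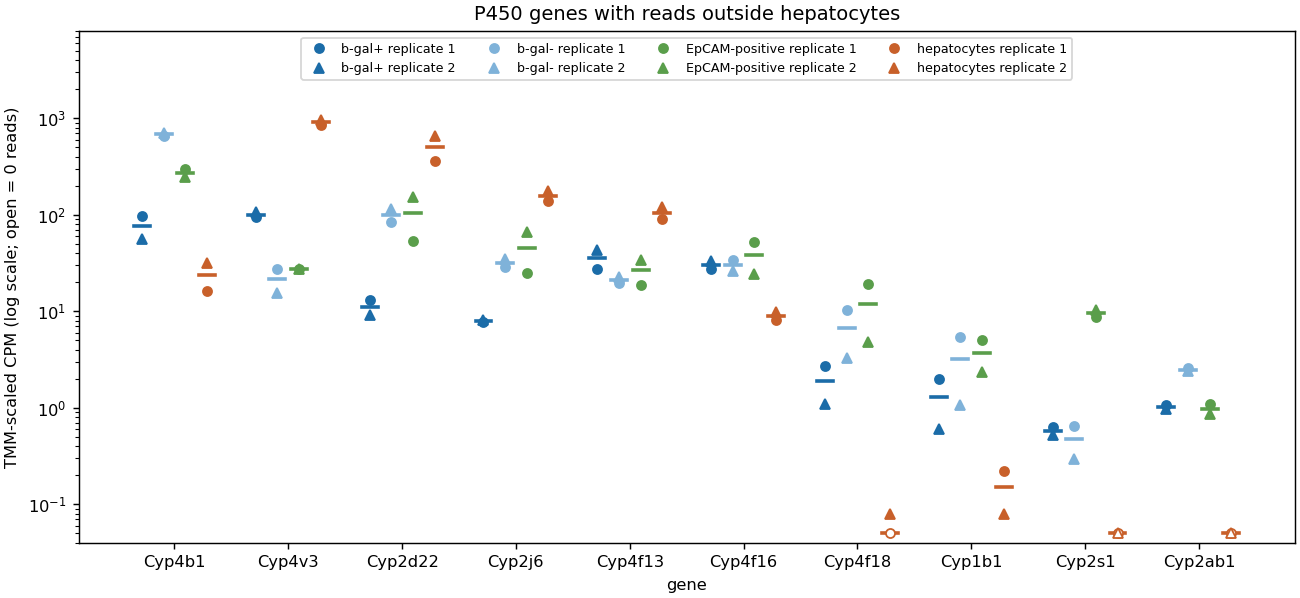
Level of 10 members that held reads outside hepatocytes, in each library (circles for replicate 1, triangles for replicate 2, bars for group means), as TMM-scaled CPM on a logarithmic axis, with open symbols for libraries without a read. Cyp4v3 is higher in b-gal+ than in the b-gal- pools, Cyp4b1, Cyp2d22 and Cyp2j6 are lower, and Cyp2s1 stands out in the EpCAM-positive pools.

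Higher than in hepatocytes were 4 of the 58 members in the b-gal+ pools, 6 in the b-gal- pools and 6 in the EpCAM-positive pools. Over all genes tested, 29.5%, 33.5% and 33.5% were higher in that order. The 4 shared members were Cyp4b1, Cyp4f16, Cyp2s1 and Cyp2ab1, and Cyp1b1 and Cyp4f18 were added in the b-gal- and EpCAM-positive pools. Cyp1a1, the classic target of the Ah receptor, and Cyp2t4 passed in no comparison with hepatocytes, and Cyp1a1 stayed between 0.121 and 0.673 CPM in all 8 libraries.

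Cyp2s1, a P450 of lining epithelia, was highest in the EpCAM-positive pools. It had 0.626 and 0.523 CPM in the b-gal+ pools, 0.653 and 0.294 CPM in the b-gal- pools, 8.79 and 10.4 CPM in the EpCAM-positive pools, and no read in either hepatocyte library. Both EpCAM-positive libraries lay above all others. Against a floor of 3 reads over the hepatocyte group, the EpCAM-positive mean was at least 83.5-fold higher (limma on log2(CPM + 0.5), log2 4.33, adjusted p = 4.02e-05). The b-gal+ mean was 16.7-fold lower than the EpCAM-positive one (adjusted p = 0.00129, limma) and the b-gal- mean 20.3-fold lower (adjusted p = 0.0158, limma). That last call did not hold without b-gal- replicate 1 (adjusted p = 0.0836), b-gal- replicate 2 (0.104) or hepatocyte replicate 2 (0.0503).

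In b-gal+ and b-gal- cells Cyp2s1 was called higher than in hepatocytes with adjusted p of 0.0148 and 0.0266 (limma), from levels under 1 CPM. The first call did not hold without either b-gal+ or either hepatocyte library or with a pseudocount of 2 CPM (adjusted p between 0.0506 and 0.0797). The second did not hold without b-gal+ replicate 2 (0.0531), b-gal- replicate 1 (0.183), hepatocyte replicate 1 (0.0848) or hepatocyte replicate 2 (0.0802), or with that pseudocount (0.121). Cyp2s1 and Epcam were both present in each EpCAM-positive library, but Epcam was 88.6 CPM in replicate 1 and 214 CPM in replicate 2 while Cyp2s1 differed little.

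Cyp4f16 and Cyp4f13 were present in every group. Cyp4f16 had 27.5 and 33.0 CPM in the b-gal+ pools, 34.0 and 26.4 CPM in the b-gal- pools, 52.2 and 24.5 CPM in the EpCAM-positive pools, and 8.12 and 9.82 CPM in hepatocytes. The 3 sorted groups overlapped one another and all lay above hepatocytes, by 3.37-fold in the b-gal+ pools (adjusted p = 0.00535), 3.36-fold in the b-gal- pools (adjusted p = 0.00512) and 4.27-fold in the EpCAM-positive pools (adjusted p = 0.00291, all limma). Cyp4f13 had 27.2 and 43.7 CPM in the b-gal+ pools, 19.6 and 22.5 CPM in the b-gal- pools, 18.8 and 34.3 CPM in the EpCAM-positive pools, and 90.5 and 119 CPM in hepatocytes. It was lower than in hepatocytes by 2.96-fold in the b-gal+ pools, 4.98-fold in the b-gal- pools and 3.95-fold in the EpCAM-positive pools, but with the deposited scaling it was not called in the b-gal+ pools (adjusted p = 0.204, limma) or EpCAM-positive cells (adjusted p = 0.124, limma).

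Cyp4f18, the hydroxylase that inactivates leukotriene B4 in mouse neutrophils, had 2.68 and 1.09 CPM in the b-gal+ pools, 10.3 and 3.28 CPM in the b-gal- pools, 19.0 and 4.79 CPM in the EpCAM-positive pools, and 0 and 0.0798 CPM in hepatocytes. It was higher than in hepatocytes in the b-gal- pools (log2 3.57, adjusted p = 0.00529) and EpCAM-positive cells (log2 4.24, adjusted p = 0.00257), and the b-gal+ value lay at the threshold (log2 2.06, adjusted p = 0.0505, all limma). The b-gal+ difference was called in 10 of the 16 alternative settings, among them RLE scaling (adjusted p = 0.0474), edgeR (0.0192) and DESeq2 (0.00216), so no difference in call between the groups is read from it. In each sorted group replicate 1 held more Cyp4f18 than replicate 2. Cyp1b1, a dioxin-induced enzyme of oestrogen metabolism found mainly outside the liver, had 1.97 and 0.604 CPM in the b-gal+ pools, 5.42 and 1.08 CPM in the b-gal- pools, 5.05 and 2.36 CPM in the EpCAM-positive pools, and 0.222 and 0.0798 CPM in hepatocytes.

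Cyp1b1 was called higher than in hepatocytes in the b-gal- pools (log2 2.24, adjusted p = 0.0283) and EpCAM-positive cells (log2 2.62, adjusted p = 0.0157, both limma). The b-gal- call did not hold without b-gal- replicate 1 (adjusted p = 0.151), hepatocyte replicate 1 (0.0928) or hepatocyte replicate 2 (0.132), or with a pseudocount of 2 CPM (0.0646). The EpCAM-positive call did not hold without EpCAM-positive replicate 1 (0.0822), hepatocyte replicate 1 (0.0641) or hepatocyte replicate 2 (0.0868). Cyp2ab1, without a read in hepatocytes, was at least 8.86-fold higher in the b-gal+ pools, 21.6-fold higher in the b-gal- pools and 8.49-fold higher in the EpCAM-positive pools against a floor of 3 reads over the group (adjusted p of 0.00131, 0.000131 and 0.00155, limma).

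Counts of calls between the sorted groups describe the members and do not test them, since many passed the filter only through their hepatocyte reads. Against the EpCAM-positive pools, b-gal+ cells had 1 member higher and 7 lower, while 14.7% of all genes were higher and 17.9% lower, and b-gal- cells had 2 higher and 4 lower, while 5.63% of all genes were higher and 6.57% lower. The 7 lower in the b-gal+ pools were Cyp4b1, Cyp2d22, Cyp2j6, Cyp2s1, Cyp3a13, Cyp4f14 and Cyp2j5. The last 4 were also those lower in the b-gal- pools, and the 2 higher ones there were Cyp4a32 and Cyp2ab1. Without either b-gal- library or hepatocyte replicate 2, almost no gene of any kind was called between b-gal- and EpCAM-positive cells. A loss of member calls in those settings is thus not particular to the members. The 1 higher in the b-gal+ pools was Cyp4v3, joined by Cyp3a11 without EpCAM-positive replicate 2 (adjusted p = 0.00484, limma). The 7 became 4 without b-gal+ replicate 1 and 3 without b-gal+ replicate 2. In b-gal- cells the 4 became 0 without either b-gal- library or hepatocyte replicate 2, 1 without hepatocyte replicate 1, 2 without either b-gal+ library and 9 without EpCAM-positive replicate 1, and the count of 2 higher ones became 0 without any 1 b-gal or hepatocyte library. Without EpCAM-positive replicate 1 it was 1, Cyp2ab1, and without EpCAM-positive replicate 2 it was also 1, but this was Cyp3a11 (adjusted p = 0.0420, limma), with neither Cyp4a32 nor Cyp2ab1 called.

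Of these, 3 are hepatocyte genes that were uneven between the EpCAM-positive pools. Cyp4f14, a liver hydroxylase of vitamin E and leukotriene B4, had 0.761 and 1.57 CPM in the b-gal+ pools, 0.307 and 0.930 CPM in the b-gal- pools, 9.06 and 54.8 CPM in the EpCAM-positive pools, and 666 and 1015 CPM in hepatocytes. Cyp2j5, an arachidonic acid epoxygenase of kidney and liver, had 0.537 and 1.53 CPM in the b-gal+ pools, 0.576 and 0.832 CPM in the b-gal- pools, 4.07 and 29.5 CPM in the EpCAM-positive pools, and 1253 and 1557 CPM in hepatocytes. Cyp3a13 had 2.49 and 7.82 CPM in the EpCAM-positive pools and 820 and 720 CPM in hepatocytes. All 3 were higher in EpCAM-positive replicate 2, the library with more hepatocyte and more cholangiocyte marker RNA, and the part of either was not tested.

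Against the EpCAM-positive pools Cyp4f14 was 27.4-fold lower in the b-gal+ pools (adjusted p = 0.0115, limma), a call that did not hold without b-gal+ replicate 1 (adjusted p = 0.0669), and 51.6-fold lower in the b-gal- pools (adjusted p = 0.0222, limma), a call that did not hold without either b-gal- or either hepatocyte library (adjusted p between 0.0555 and 0.114). Cyp2j5 was 16.3-fold lower in the b-gal+ pools (adjusted p = 0.0298, limma) and 23.9-fold lower in the b-gal- pools (adjusted p = 0.0455, limma). Cyp3a13 was 7.14-fold lower in the b-gal+ pools (adjusted p = 0.0190, limma) and 9.55-fold lower in the b-gal- pools (adjusted p = 0.0306, limma). The calls of Cyp2j5 and Cyp3a13 did not hold without either b-gal+ or either hepatocyte library, up to adjusted p of 0.145 for Cyp2j5 and 0.0968 for Cyp3a13 in the b-gal+ pools, and in the b-gal- pools also without either b-gal- library, up to 0.184 for Cyp2j5 and 0.138 for Cyp3a13. With a pseudocount of 2 CPM the calls of Cyp2j5 in both comparisons and of Cyp3a13 in the b-gal- pools were lost as well (adjusted p between 0.0533 and 0.0764, limma), and with no filter that of Cyp2j5 in the b-gal- pools (0.0616). Of the 2 genes higher in the b-gal- pools, Cyp4a32 had 3.38 and 7.14 CPM there, against 0.669 and 1.01 CPM in the EpCAM-positive pools (adjusted p = 0.0318, limma), and Cyp2ab1 had 2.57 and 2.40 CPM, against 1.09 and 0.860 CPM (adjusted p = 0.0442, limma). Leaving out any 1 of the 8 libraries lost the first call, as did no filter (adjusted p between 0.0523 and 0.188), and leaving out any but EpCAM-positive replicate 1 lost the second, as did RLE scaling, the deposited scaling, a pseudocount of 0.1 CPM, edgeR and DESeq2 (adjusted p between 0.0542 and 0.202).

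The members also varied between the 2 hepatocyte pools, which has no test since each is 1 library. Of 48 members with at least 10 CPM in hepatocytes, 39 were higher in replicate 2, with a median log2 ratio of replicate 2 over replicate 1 of 0.62, beside 3881 of 8568 genes and a median of -0.04 over all genes at that level. At least 2-fold higher were 13 members, while 1.84% of all genes were, and at 0.5-fold or less were Cyp2d9 and Cyp3a16, while 1.03% of all genes were. The widest gaps were in the Cyp4a subfamily of PPARα targets: Cyp4a14 had 485 CPM in replicate 2, against 24.2 CPM in replicate 1, and Cyp4a10 had 494 CPM, against 68.5 CPM.

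Genes of the Y chromosome separated the replicate numbers in every group. Ddx3y, a helicase gene of the Y chromosome, had no read in replicate 2 of any of the 4 groups, and in replicate 1 had 109 CPM in the b-gal+ pools, 87.0 CPM in the b-gal- pools, 59.3 CPM in the EpCAM-positive pools and 103 CPM in hepatocytes. Xist, the RNA that silences an X chromosome in females, was present in all 8 libraries and between 3.24 and 7.89 times as high in replicate 2 as in replicate 1. The sample labels give no sex.

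P450 genes known to depend on sex in mouse liver differed between the same 2 hepatocyte pools. Of 6 genes on a list of male-biased P450s, which also holds genes that are not members, 5 were at 0.5-fold or less in replicate 2. Cyp2d9, a testosterone hydroxylase of male liver, had 114 CPM in replicate 2, against 781 CPM in replicate 1. Cyp7b1, an oxysterol hydroxylase, had 31.5 CPM, against 230 CPM, and Cyp4a12a had 0.559 CPM, against 66.0 CPM. Cyp2u1 had 5.35 CPM, against 14.5 CPM, and Cyp2j5 was the exception with 1557 CPM, against 1253 CPM.

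A list of female-biased P450s holds 11 genes, of which 9 reached 1 CPM in a hepatocyte pool, as did all 6 of the male-biased list, and 7 of the 9 were higher in replicate 2. Cyp2b9 had 864 CPM in replicate 2, against 315 CPM in replicate 1, Cyp2b13 had 298 CPM, against 71.2 CPM, and Cyp17a1, a steroid hydroxylase, had 501 CPM, against 83.2 CPM. The exceptions were all of Cyp3a. Cyp3a16 had 46.1 CPM in replicate 2, against 220 CPM in replicate 1, and Cyp3a44 had 69.9 CPM, against 133 CPM. Below 1 CPM, Cyp3a41a was also lower in replicate 2, at 0.160 CPM, against 0.591 CPM in replicate 1 (2 reads against 8), and Cyp3a41b had no read in either. The sex make-up of the pools and any other difference between them cannot be told apart with 1 pool each.

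Genes of the central vein zone differed between the same pools. Of 8 pericentral P450s, 7 were higher in replicate 2 and 6 of them at least 2-fold, with a median log2 ratio of 1.11. Cyp1a2, the liver enzyme that clears caffeine, had 927 CPM in replicate 2, against 360 CPM in replicate 1, and Cyp2c29 had 2281 CPM, against 982 CPM. Cyp2e1 had 5811 CPM, against 4123 CPM, and Cyp3a11 was the exception with 5977 CPM, against 6803 CPM. Among 10 pericentral genes other than P450s, 10 were higher in replicate 2 (median log2 ratio 1.11), Glul with 1189 CPM, against 286 CPM, and Lgr5 with 13.97 CPM, against 6.72 CPM. Among 8 periportal genes other than P450s the median log2 ratio was 0.13, with 6 higher. Both P450s on the periportal list were also higher in replicate 2. Cyp2f2 had 3496 CPM, against 2214 CPM, and Cyp17a1 had 501 CPM, against 83.2 CPM. The part of zonation in these ratios was not tested.

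**Figure D5:**
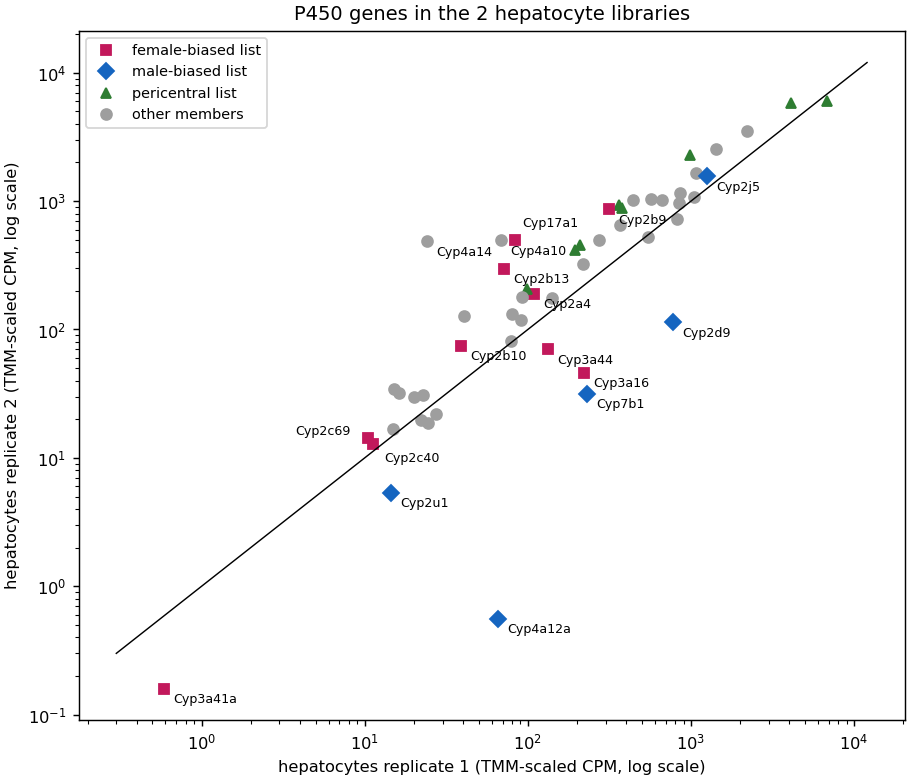
Level of members with at least 10 CPM in hepatocytes, and of genes of the sex-biased P450 lists, in hepatocyte replicate 2 (vertical) against replicate 1 (horizontal), in TMM-scaled CPM on logarithmic axes, with the line of equal level. Male-biased genes such as Cyp2d9 and Cyp7b1 fall below the line, Cyp2b9, Cyp2b13 and Cyp17a1 lie above it, and Cyp4a14 is the farthest above.

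The proteins that P450s work with were lower outside hepatocytes as well. All 7 redox partners were lower than in hepatocytes in each of the 3 sorted groups, with a median log2 difference of -3.52 in the b-gal+ pools, -3.07 in the b-gal- pools and -3.28 in the EpCAM-positive pools, a smaller gap than the members' medians. Over all genes tested, 29.6%, 29.7% and 29.1% were lower in that order. Por, the reductase that feeds electrons to microsomal P450s, had 129 and 103 CPM in the b-gal+ pools, 62.7 and 69.4 CPM in the b-gal- pools, 51.0 and 85.8 CPM in the EpCAM-positive pools, and 481 and 554 CPM in hepatocytes (log2 -2.16, -2.96 and -2.95 in the order of the sorted groups, adjusted p of 0.000390, 8.46e-05 and 0.000113, limma). Pgrmc1, a haem-binding partner, had the widest gap, at log2 -5.15, -4.97 and -4.61. Fdxr, the mitochondrial reductase, was no longer called in any sorted group with the deposited scaling (adjusted p = 0.105 for the b-gal+ pools, 0.0685 for the b-gal- pools and 0.353 for the EpCAM-positive pools, limma) or, for the EpCAM-positive pools, without hepatocyte replicate 1 (0.0517), and Cyb5r3 was lost in the b-gal- pools (0.0601). Of 8 genes of haem synthesis, 7 were lower in each sorted group, among them Alas1, the enzyme that sets the pace of haem synthesis, with 42.8 and 38.1 CPM in the b-gal+ pools, 36.4 and 28.2 CPM in the b-gal- pools, 27.7 and 28.1 CPM in the EpCAM-positive pools, and 427 and 465 CPM in hepatocytes.

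Of 24 regulators of P450 transcription, 14 were lower than in hepatocytes in the b-gal+ pools, 14 in the b-gal- pools and 14 in the EpCAM-positive pools, not always the same ones, and 3 were higher in the b-gal+ pools, 4 in the b-gal- pools and 2 in the EpCAM-positive pools. Over all genes tested, 29.6%, 29.7% and 29.1% were lower in that order, and 29.5%, 33.5% and 33.5% were higher. Nr1i2 (PXR), the xenobiotic receptor that drives Cyp3a11, had 0.134 and 0.201 CPM in the b-gal+ pools, 0.0384 and 0.245 CPM in the b-gal- pools, 3.59 and 19.9 CPM in the EpCAM-positive pools, and 131 and 144 CPM in hepatocytes. Nr1i3 (CAR), the receptor that drives Cyp2b10, had at most 0.411 CPM in any sorted library, against 79.9 and 200 CPM in hepatocytes. Both were lower in all 3 groups, as were Hnf4a, Ppara, Nr0b2, Foxa2 and Foxa3. In EpCAM-positive cells the Foxa2 call (adjusted p = 0.0307, limma) was lost with edgeR (0.105), DESeq2 (0.0985), the deposited scaling (0.369), a pseudocount of 0.1 CPM (0.0846) and without b-gal+ replicate 1 (0.0518), EpCAM-positive replicate 1 (0.0910) or either hepatocyte library (0.0795 and 0.148).

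Most of the few regulators that were higher outside hepatocytes belong to the Ah receptor pathway, and are named because of their values. Genes of this pathway were put on the list by choice, so no result about the pathway is read from them. Ahr, the dioxin receptor that drives Cyp1a1, had 59.0 and 47.4 CPM in the b-gal+ pools, 209 and 370 CPM in the b-gal- pools, 152 and 148 CPM in the EpCAM-positive pools, and 86.0 and 86.2 CPM in hepatocytes. In the b-gal+ pools Ahr lay below hepatocytes, a difference that missed the threshold (log2 -0.70, adjusted p = 0.0580, limma). It was higher than in hepatocytes in the b-gal- pools (log2 1.68, adjusted p = 0.00137, limma) and in the EpCAM-positive pools (log2 0.80, adjusted p = 0.0352, limma), the last call not holding without either b-gal+, either EpCAM-positive or either hepatocyte library and with no filter on low counts (adjusted p between 0.0524 and 0.154). Its targets Tiparp and Ahrr, which restrain the pathway, were higher in the b-gal+ pools (log2 2.35 and 2.89, adjusted p of 0.000513 and 0.000624, limma) and in the b-gal- pools (log2 1.16 and 1.64, adjusted p of 0.0124 and 0.00821, limma). The b-gal- call of Tiparp did not hold without b-gal- replicate 1 (adjusted p = 0.0739) or hepatocyte replicate 2 (0.0976), and that of Ahrr without b-gal- replicate 2 (0.0567) or hepatocyte replicate 2 (0.0576). Tiparp was also higher in the EpCAM-positive pools (log2 1.51, adjusted p = 0.00412, limma), Tcf7l2 in the b-gal+ pools (log2 2.60, adjusted p = 4.36e-05, limma) and Arnt in the b-gal- pools (log2 0.46, adjusted p = 0.0227, limma), where leaving out either b-gal- library, b-gal+ replicate 2 or hepatocyte replicate 2 lost the Arnt call, as did RLE scaling and DESeq2 (adjusted p up to 0.165).

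P450s of other families showed the same contrast with a few exceptions. Of 15 tested genes on this list, 9 were lower than in hepatocytes in each sorted group, among them Cyp8b1, Cyp7a1, Cyp17a1 and Cyp46a1, which act on sterols, steroids and bile acids. Higher than in hepatocytes were 2 in the b-gal+ pools, 3 in the b-gal- pools and 3 in the EpCAM-positive pools, named because of their values. Over all genes tested, 29.6%, 29.7% and 29.1% were lower in that order, and 29.5%, 33.5% and 33.5% were higher. The higher genes are thus not read as a trait of these families. Tbxas1, thromboxane synthase, had 211 and 203 CPM in the b-gal+ pools, 69.7 and 35.8 CPM in the b-gal- pools, 46.5 and 24.9 CPM in the EpCAM-positive pools, and 3.03 and 1.92 CPM in hepatocytes (log2 6.15, 4.11 and 3.57 in the order of the sorted groups, adjusted p of 2.92e-05, 0.000144 and 0.000336, limma). Ptgis, prostacyclin synthase, was higher in all 3 groups (log2 3.83, 3.25 and 2.76), its EpCAM-positive call not holding without hepatocyte replicate 1 (adjusted p = 0.0798, limma). Cyp20a1 was higher in the b-gal- pools (log2 0.99, adjusted p = 0.00156, limma), and Cyp11a1 in the EpCAM-positive pools (adjusted p = 0.0434, limma) at 3.83 and 0.337 CPM, a call that did not hold without either b-gal+, either b-gal- or either hepatocyte library (adjusted p up to 0.146).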

How the data were processed

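Bulk RNA libraries of 4 groups with 2 libraries each were analysed. HTSeq, GRCm38.p4 and mm10 are named per the submitters' processing notes, without versions or roles. The aligner and annotation are not given in the sources used here. Hepatocyte replicate 1 was deposited as plain counts per gene, and the other 7 deposited tables hold values that are whole counts times 1 factor per library. The factor was found from the steps of the values and divided out, which gave whole reads (within 0.01) for 100% of values. Rows named by a date in place of a gene (14 per table, 0.0514% to 0.182% of the values) were left out. Since the units were scaled counts, limma rather than a count model gives the values reported, and edgeR and DESeq2 on the recovered reads are alternatives.

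Genes passing edgeR's expression filter (14404) were scaled by TMM and fitted as log2(CPM + 0.5) with limma's trend, all 8 libraries in 1 fit, two-sided, with Benjamini-Hochberg adjustment over all genes tested and calls at an adjusted p under 0.05. Fold changes of low genes are understated on this scale; folds in the text are ratios of mean CPM. The floor of 3 reads in a library corresponds to 0.122 to 0.177 CPM before scaling and covers counting error only. All replicate libraries were kept as separate samples. Tools were R 4.3.3, limma 3.58.1, edgeR 4.0.16 and DESeq2 1.42.0, tested on simulated data. Alternatives were RLE scaling, the deposited scaling, no filter, pseudocounts of 0.1 and 2 CPM, edgeR, DESeq2, a replicate block and leaving out each library.

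Members named with values had a mean of at least 50 CPM in a group, or a highest group other than hepatocytes at 1 CPM or more, or stand on the lists of sex-biased or zonal P450s. From the other lists, genes called and at 10 CPM or more were named by size of difference. Outside these rules, Cyp1a1, Cyp2j9, Cyp2r1 and Cyp4a32 among the members, and the regulators and other P450s that were higher than in hepatocytes, Ahrr and Cyp11a1 below 10 CPM included, were chosen after their values were seen. The members and lists were chosen with earlier results of these data known. Gene positions come from GENCODE M21, and sequence shared between genes was counted over stretches of 50 bases of exons. A regulator and a motif that were also computed are not reported here.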

Additional observations from a re-analysis of the deposited data

How the results depend on the processing

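The 16 alternative settings kept the calls of Cyp4b1 and Cyp4v3 between the b-gal gates and of Cyp2e1 and Cyp3a11 against hepatocytes. Of members higher in b-gal+ than in b-gal- cells (1), DESeq2 called 2 and the replicate block 2. Of those higher in b-gal+ than in EpCAM-positive cells (1), edgeR called 2 and DESeq2 3. Of those higher in b-gal- than in EpCAM-positive cells (2), RLE, the deposited scaling, no filter, a pseudocount of 0.1 and edgeR each called 1, and of those lower (4) a pseudocount of 2 called 2. The cause of these differences was not tested. Between b-gal- and EpCAM-positive cells, almost no gene of any kind was called without either b-gal- library or hepatocyte replicate 2. Leaving out 1 library at a time, with the lone sample assumed to vary like the other groups, gave these ranges. In b-gal+ against b-gal- cells 1 to 2 members were higher and 1 to 6 lower, in b-gal+ against EpCAM-positive cells 1 to 2 and 3 to 9, and in b-gal- against EpCAM-positive cells 0 to 1 and 0 to 9. Against hepatocytes they were 3 to 6 and 50 to 50 in b-gal+ cells, 4 to 6 and 49 to 50 in b-gal- cells, and 5 to 7 and 49 to 50 in EpCAM-positive cells. The direction turned for Fdxr (log2 0.27, adjusted p = 0.353), Arnt (1.35, 0.000108) and Tcf7l2 (1.34, 0.000673) in EpCAM-positive cells against hepatocytes with the deposited scaling, and for Cyp3a11 in b-gal- against EpCAM-positive cells without EpCAM-positive replicate 2 (log2 1.31, against -0.10 with all libraries and -1.51 without replicate 1, adjusted p = 0.0420; limma for all). The replicate block, in which equal numbers share a term, also called Cyp4f13 higher in b-gal+ than in b-gal- cells (adjusted p = 0.0390, limma), Cyp4f18 (0.0151) and Cyp1b1 (0.0295) higher in b-gal+ cells than in hepatocytes, and Cyp4f15 (0.0418) and Cyp4f18 (0.0225) lower in b-gal+ than in EpCAM-positive cells. Deviations of equal numbers correlated across genes at 0.177 to 0.494 between groups, but the labels do not say that the numbers mark shared mice.

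With 2 libraries a group, and 3 reads worth up to 0.240 CPM after scaling, differences of members near 1 CPM rest on few reads. The mixed cell types of the sorted libraries, the single pool behind each hepatocyte replicate, and reads shared by close P450 copies limit what single values show.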

Other observations

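Cyp26b1, which breaks down retinoic acid and belongs to none of families 1 to 4, differed widely between replicates in every group. It had 28.0 and 275 CPM in b-gal+ cells, 198 and 3757 CPM in b-gal- cells, 90.5 and 1253 CPM in EpCAM-positive cells, and 5.02 and 126 CPM in hepatocytes. Replicate 2 was 9.85-fold higher than replicate 1 in b-gal+ cells, 19.0-fold in b-gal- cells, 13.8-fold in EpCAM-positive cells and 25.1-fold in hepatocytes, with 1 pool behind each value. In b-gal- replicate 2 its level exceeded that of Cyp4b1, the highest member there at 709 CPM.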
